A study of Mus musculus with 13 samples.

Results

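Angptl7 and Masp2 lie about 102 kb apart on mouse chromosome 4, in and beside the gene for the kinase mTOR, and were examined here in purified kidney glomeruli together with 5 genes around them: Mtor, Exosc10, Srm, Tardbp and Casz1. These 7 genes are 7 of the 46958 gene rows of the deposited count table. Angptl7 and Masp2 were chosen because they were low in the LCDD genotype in these same libraries, so their values in comparisons with LCDD are a description and carry no test. The other 5 were chosen by their position and can be tested.

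Messenger RNA was sequenced from bead-purified glomeruli of mice aged 6 months, on a mixed C57/BL6x129/SVxBALB/c background, in 13 libraries. There were 4 libraries of LCDD (light chain deposition disease, genotype kFRA), 4 of DH-LMP2A and 5 of wild type (WT). Each LCDD and DH-LMP2A library and WT replicates 1 and 2 pooled 3 mice, while WT replicates 3, 4 and 5 were from 1 mouse each. As background, in LCDD a clonal light chain is laid down along kidney basement membranes, and DH-LMP2A is known as an allele that expresses the viral protein LMP2A from the immunoglobulin heavy-chain locus. The labels do not state whether the LCDD mice also carry DH-LMP2A, nor how far the genotypes share the flanks of chromosome 4 on this mixed background. Total counts ran from 16687509 to 30587890 per library, and a floor of 3 counts corresponds to 0.0981 to 0.180 CPM (the count scaled to the library's total). Summed levels of 6 podocyte markers were 6729 to 30445 CPM, of 6 proximal tubule markers 77.7 to 1785 CPM and of 5 leukocyte markers 20.5 to 69.4 CPM, so the markers of the labelled tissue were present in every library with varying tubular RNA.

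Angptl7 encodes a secreted angiopoietin-like protein with a fibrinogen-like domain, known best from the connective tissues of the eye. Masp2 encodes the serine protease that starts the lectin pathway of complement by cleaving C4 and C2 once mannose-binding lectin, a ficolin or a collectin has bound a surface, and it is made mainly in the liver. The neighbours serve general cell functions: mTOR is the kinase of the nutrient-sensing complexes mTORC1 and mTORC2, Exosc10 a nuclease of the nuclear RNA exosome, Srm the spermidine synthase of the polyamine pathway, Tardbp the RNA-binding protein TDP-43, and Casz1 a zinc finger transcription factor of heart and vessel development.

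Coordinates are those of the deposited table on GRCm38, and all 7 spans are identical to those of GENCODE M21. Mtor (plus strand, chr4:148448611-148557683) is followed after 745 bases by Exosc10 (plus, chr4:148558429-148582401), then Srm (plus, chr4:148591503-148594993) and Masp2 (plus, chr4:148602554-148615499). Angptl7 (minus, chr4:148495183-148500460) lies wholly inside an intron of Mtor, between exon blocks 26 and 27 of 56, on the opposite strand, and shares 0 exon bases with it. Reads from unspliced Mtor RNA over the Angptl7 exons cannot be told apart from Angptl7 without the strand. The end of Masp2 runs into the end of Tardbp (minus, chr4:148612382-148627019) from the opposite direction, and 1817 of the 3307 exon bases of Masp2 overlap exons of Tardbp. Because the strand setting of the counting is not given in the sources used here, reads in that overlap cannot be told apart between Masp2 and Tardbp. Casz1 (plus, chr4:148804429-148954889) lies 177 kb beyond Tardbp.

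The 250 bases before the start site are shown for the pair that differed between genotypes and for the overlapping neighbours that were not called in any comparison. They are from RefSeq on GRCm38.p6, which held a start for 6 of the 7 members, and read 5′ to 3′ on the gene's strand with CG dinucleotides in capitals.
Angptl7, chr4:148500463-148500712, minus strand: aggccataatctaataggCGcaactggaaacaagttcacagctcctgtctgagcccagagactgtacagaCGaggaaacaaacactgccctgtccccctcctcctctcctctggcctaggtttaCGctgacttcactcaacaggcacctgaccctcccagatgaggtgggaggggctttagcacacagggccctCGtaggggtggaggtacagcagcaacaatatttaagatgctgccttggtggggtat
Masp2, chr4:148602294-148602543, plus strand: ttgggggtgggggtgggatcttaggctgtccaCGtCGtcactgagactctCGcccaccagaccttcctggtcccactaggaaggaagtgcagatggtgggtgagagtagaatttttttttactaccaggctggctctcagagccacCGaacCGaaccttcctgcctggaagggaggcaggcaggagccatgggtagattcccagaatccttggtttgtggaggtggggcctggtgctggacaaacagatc
Mtor, chr4:148448332-148448581, plus strand: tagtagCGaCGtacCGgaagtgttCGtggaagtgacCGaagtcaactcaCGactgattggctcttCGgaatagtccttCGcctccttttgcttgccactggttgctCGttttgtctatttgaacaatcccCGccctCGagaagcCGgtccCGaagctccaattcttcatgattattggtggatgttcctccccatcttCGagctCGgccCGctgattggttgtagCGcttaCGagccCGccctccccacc
Tardbp, chr4:148626997-148627246, minus strand: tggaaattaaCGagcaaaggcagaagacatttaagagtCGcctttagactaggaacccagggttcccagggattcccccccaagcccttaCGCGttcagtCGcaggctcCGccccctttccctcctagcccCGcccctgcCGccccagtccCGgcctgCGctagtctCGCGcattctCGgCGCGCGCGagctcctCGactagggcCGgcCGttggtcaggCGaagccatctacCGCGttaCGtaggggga

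The Angptl7 window holds 4 CG dinucleotides and the Masp2 window 5, close to the median of 6 over 32851 mouse promoter windows of the same length (quartiles 2 and 16). The neighbours are richer in CG, with 19 in Mtor, 24 in Tardbp, 13 in Exosc10 and 27 in Casz1. Searched on both strands, TATAAA (in 12.4% of all windows), CCAAT (33.8%) and GGGCGG (32.7%) were all absent from the Angptl7, Masp2, Exosc10 and Casz1 windows. The Mtor window holds CCAAT and GGGCGG, and the Tardbp window GGGCGG. These are letter matches in the reference sequence and say nothing of the alleles of these mice.

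Angptl7 was high in DH-LMP2A glomeruli, low in LCDD, and split within WT. The DH-LMP2A replicates 1 to 4 had 49.4, 148, 97.0 and 97.2 CPM (scaled with TMM factors), from 1319, 4008, 1699 and 2171 counts. The LCDD replicates 1 to 4 had 0.882, 2.41, 4.36 and 2.13 CPM, from 23, 64, 81 and 54 counts. Every DH-LMP2A library lay above every LCDD library, a lack of overlap that the choice of the gene used and that 7.62% of all genes tested showed. The pooled WT replicates 1 and 2 had 1.04 and 6.12 CPM, and the single-mouse WT replicates 3, 4 and 5 had 17.9, 19.1 and 14.8 CPM. WT replicate 1 thus lay within the LCDD range and WT replicate 2 just above it, while the single mice lay between all LCDD and all DH-LMP2A libraries.

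The fitted difference of LCDD from DH-LMP2A was -5.34 ± 0.78 (SE) on the log2 scale for Angptl7, a level 40.6-fold higher in DH-LMP2A. Within the 4 title codes (a 6-digit number in the sample titles that libraries of different genotypes share) the difference in log2 CPM, with a prior count of 2, ran from -5.90 to -4.45. Against WT the fitted LCDD difference was -2.29 ± 0.69 (SE). It was -0.53 ± 0.70 (SE) without the 3 single-mouse libraries and -2.86 ± 0.44 (SE) without the WT pools. Between DH-LMP2A and WT the difference was 3.06 ± 0.64 (SE), and the DH-LMP2A mean of 98.0 ± 40.5 CPM (SD, n = 4) was 27.4-fold that of the 2 WT pools and 5.68-fold that of the 3 single mice. The DH-LMP2A libraries also entered the comparison that chose the gene, so this contrast is given without a test as well. Angptl7 in DH-LMP2A thus stood above every LCDD and WT library; 4.97% of all genes did not overlap between DH-LMP2A and WT.

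Masp2 showed the same order at a far lower level. The DH-LMP2A replicates 1 to 4 had 33, 91, 92 and 135 counts (1.23, 3.37, 5.25 and 6.04 CPM), and the LCDD replicates 1 to 4 had 2, 4, 3 and 6 counts (0.0767, 0.151, 0.162 and 0.237 CPM). The WT pools had 4 counts and 1 count, and the single WT mice 36, 39 and 24 counts (1.44, 1.75 and 0.973 CPM). LCDD and DH-LMP2A did not overlap, which the choice of Masp2 used and which 7.62% of all genes tested showed. The LCDD libraries and WT pools were near the floor of 3 counts, so no order between them could be read at this depth. The single WT mice lay above both, and WT replicates 3 and 4 overlapped DH-LMP2A replicate 1.

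For Masp2 the fitted difference of LCDD from DH-LMP2A was -4.62 ± 0.89 (SE) on the log2 scale, or 24.6-fold, and -4.44 to -3.04 in log2 CPM within the title codes. Against WT it was -2.45 ± 0.85 (SE), turned to 0.54 ± 0.84 (SE) without the single-mouse WT libraries and was -3.13 ± 0.56 (SE) without the WT pools. DH-LMP2A was higher than WT by 2.17 ± 0.70 (SE), by 5.16 ± 0.81 (SE) against the WT pools alone and by 1.497 ± 0.48 (SE) against the single mice alone. Angptl7 counts were 8 to 99 times the Masp2 counts in the same library, and the log2 CPM of the genes had a Pearson correlation of 0.925 over the 13 libraries. That value is a description: both genes were chosen for the same contrast and share the libraries and their depth.

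**Figure D1:**
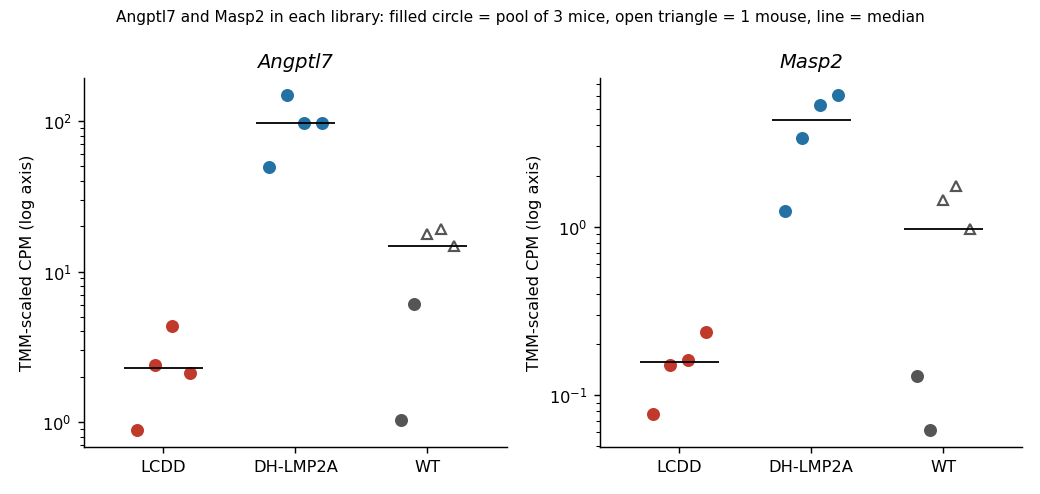
TMM-scaled CPM of Angptl7 and Masp2 on log axes in each of 13 libraries, by genotype, with a line at the median. Filled circles are pools of 3 mice and open triangles single WT mice: DH-LMP2A libraries are highest for Angptl7 (49.4 to 148 CPM), the WT pools lie at or near the LCDD range and the single WT mice lie between.

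The split within WT cannot be assigned to pooling, since the 3 single mice also share 1 title code that neither WT pool carries. Under that code Angptl7 was lower in LCDD than in WT by 2.96 in log2 CPM, against 0.21 and 0.48 under the codes of the WT pools. The 5 leukocyte markers summed to 69.4 and 56.2 CPM in WT replicates 1 and 2, the pools, against 21.9 to 32.6 CPM in the single mice. Summed proximal tubule markers set apart WT replicate 1 (1677 CPM), while WT replicate 2 (121 CPM) lay within the 77.7 to 219 CPM of the single mice. The part of these in the result was not tested. Ddx3y, a Y-linked transcript, had 0 counts in WT replicates 1, 4 and 5, 1 count in WT replicate 3 and 197 counts (12.2 CPM) in WT replicate 2. It was present in every LCDD library (84.9, 11.1, 100.2 and 8.20 CPM) and every DH-LMP2A library (49.99, 85.1, 24.8 and 53.0 CPM). Xist, an X-linked transcript of female cells, had 98.8, 510, 0.485 and 1000 CPM in LCDD replicates 1 to 4. In DH-LMP2A replicates 1 to 4 it had 102, 38.0, 1001 and 786 CPM. Libraries of LCDD and DH-LMP2A with the same title code thus differed in these transcripts too. The part of sex in any of the 3 comparisons was not tested. Between the pooled genotypes, the proximal tubule sum was 790, 910, 268 and 317 CPM in LCDD replicates 1 to 4 and 1785, 1257, 536 and 279 CPM in DH-LMP2A replicates 1 to 4. It was thus higher in DH-LMP2A under 3 of the 4 shared title codes, and the 6 markers had a median log2 fold change of -0.85 in LCDD against DH-LMP2A, with 0 called. Its part in the difference of the pair was not tested. Of 5 fibroblast markers, Lum was at or under 3 counts in every library. The sum of the 5 was lower in DH-LMP2A (113 to 143 CPM) than in LCDD (148 to 225 CPM). The 4 tested had a median log2 fold change of 0.18 in LCDD against DH-LMP2A, with 0 called. With the title code as a block 1 was called higher (6.10% of all genes were called). In DH-LMP2A against WT their median was 0.47, although the mean sum was lower in DH-LMP2A (131 CPM) than in WT (180 CPM). The sum and the single markers thus did not all go the same way. The sum of 5 hepatocyte markers was 8.998 to 17.8 CPM in DH-LMP2A and 4.69 to 34.7 CPM in LCDD. In WT it was 19.4 and 3.15 CPM in replicates 1 and 2 and 3.53 to 4.38 CPM in the single mice. Only 3 of the 5 were tested, with a median log2 fold change of -0.56 in LCDD against DH-LMP2A and 0 called. In LCDD against WT 1 of the 3 was called higher (1.30% of all genes). In DH-LMP2A against WT 0 were called, at a median of 1.08. Summed levels of 6 mesangial markers were 2549 to 3202 CPM in DH-LMP2A and 3288 to 5308 CPM in LCDD. Of these 6, 1 was called higher in LCDD (1.30% of all genes). With the title code as a block 2 were called higher and 1 lower (6.10% of all genes were called). Of 6 podocyte markers 0 were called in LCDD against DH-LMP2A, and 2 were called lower with the block. Their median log2 fold change was -0.47 without it. For 6 markers of glomerular endothelium the sums were 3159 to 8471 CPM in DH-LMP2A and 4545 to 10608 CPM in LCDD, with 0 called. The part of these markers in the difference of the pair was not tested. In these bulk libraries fewer cells of a type and less RNA per cell cannot be told apart.

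The 5 neighbouring members were tested in each comparison with edgeR's quasi-likelihood test, with p-values adjusted over all 16738 genes tested and a call at an adjusted p under 0.05. None of the 5 was called in LCDD against DH-LMP2A, where 2.00% of all genes were called. Here 1 had an unadjusted p under 0.05 (13.10% of all genes) and DESeq2 called 0 (4.02% of the genes it gave an adjusted p). None was called in LCDD against WT (background 1.84%), where 0 had an unadjusted p under 0.05 (11.96%) and DESeq2 called 0 (3.60%). In DH-LMP2A against WT (background 0.627%) none was called either. The 1 gene with an unadjusted p under 0.05 (12.46% of all genes), Srm, was called by DESeq2 (2.35%).

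Mtor, whose intron holds Angptl7, had 86.6, 118, 117 and 120 CPM in LCDD replicates 1 to 4, and 115, 145, 139 and 128 CPM in DH-LMP2A replicates 1 to 4. WT had 105 CPM in replicate 1 and 122 to 133 CPM in the others. The groups overlapped, with LCDD replicate 1 lowest. Within title codes Mtor was lower in LCDD than in DH-LMP2A in 4 of 4, by a log2 CPM difference of -0.40 to -0.10, and lower than in WT in 3 of 3 (-0.28 to -0.09). The log2 fold change was -0.26 ± 0.12 (SE) in LCDD against DH-LMP2A (edgeR adjusted p = 0.406), -0.17 ± 0.12 (SE) against WT (0.693) and 0.09 ± 0.12 (SE) in DH-LMP2A against WT (0.788). With the title code as a block it was not called either, at -0.26 ± 0.07 (SE, edgeR adjusted p = 0.0583) between LCDD and DH-LMP2A and -0.18 ± 0.07 (SE, edgeR adjusted p = 0.235) between LCDD and WT. Leaving out LCDD replicate 1 moved the Mtor values to -0.16 and -0.07.

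Exosc10, which begins where Mtor ends, was the steadiest member. Its 13 libraries lay between 80.3 and 94.8 CPM, and the mean was 88.5 ± 5.80 (SD, n = 4) for LCDD, 88.4 ± 4.79 (SD, n = 4) for DH-LMP2A and 88.4 ± 4.68 (SD, n = 5) for WT. The log2 fold changes were 0.0022, 0.0010 and -0.0012 in the 3 comparisons, each with an SE of 0.08, with edgeR adjusted p of 0.995, 0.999 and 0.997.

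Srm was the neighbour with the smallest adjusted p in both comparisons with DH-LMP2A. The LCDD replicates had 13.9, 12.8, 14.2 and 14.3 CPM and the DH-LMP2A replicates 16.5, 15.8, 22.3 and 20.4 CPM, without overlap (background 7.62%). WT ranged from 10.7 to 15.9 CPM, of which WT replicate 2 just overlapped DH-LMP2A replicate 2. The log2 fold change of LCDD against DH-LMP2A was -0.44 ± 0.15 (SE, edgeR adjusted p = 0.171, and 0.0664 with the title code as a block). In DH-LMP2A against WT it was 0.50 ± 0.14 (SE, edgeR adjusted p = 0.149), and 0.53 ± 0.12 (SE) with the block, which called it (edgeR adjusted p = 0.0470). LCDD and WT differed by 0.06 ± 0.14 (SE, edgeR adjusted p = 0.948).

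Tardbp, which overlaps the end of Masp2, had 162 to 282 CPM in LCDD, 189 to 299 CPM in DH-LMP2A and 154 to 270 CPM in WT. The groups overlapped almost entirely. Its log2 fold change was -0.11 ± 0.21 (SE) in LCDD against DH-LMP2A (edgeR adjusted p = 0.878), 0.08 ± 0.20 against WT (0.949) and 0.20 ± 0.20 in DH-LMP2A against WT (0.724). The overlapping exons thus accompanied a difference in Masp2 without a called difference in Tardbp, whose counts in a library (2495 to 7170) were far above those of Masp2 (1 to 135).

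Casz1 varied most among the neighbours, with wide ranges within each genotype. LCDD replicates 1 to 4 had 15.9, 36.7, 88.8 and 59.0 CPM, DH-LMP2A replicates 1 to 4 had 42.9, 65.8, 92.8 and 82.7 CPM, and WT had a lowest value of 40.5, a median of 68.8 and a highest value of 90.4 CPM. Within LCDD and within DH-LMP2A the summed podocyte markers had the same order. They were at 6729, 12320, 29234 and 24229 CPM in LCDD replicates 1 to 4 and 15118, 19593, 29778 and 28776 CPM in DH-LMP2A replicates 1 to 4. In WT the order was not the same. Podocyte sums there were 13811, 29929, 28644, 30445 and 22459 CPM in replicates 1 to 5, beside Casz1 at 40.5, 65.5, 73.4, 90.4 and 68.8 CPM. The part of the podocyte markers in the Casz1 values was not tested. Within title codes Casz1 was lower in LCDD than in DH-LMP2A in 4 of 4, by a log2 CPM difference of -1.43 to -0.06. It was lower in LCDD than in WT in 2 of 3 (-1.34 to 0.44). With the title code as a block LCDD differed from DH-LMP2A by -0.66 ± 0.23 (SE, edgeR adjusted p = 0.119). From WT it differed by -0.44 ± 0.23 (SE, edgeR adjusted p = 0.383), and neither was called. Without the block the log2 fold change was -0.51 ± 0.42 (SE) in LCDD against DH-LMP2A (edgeR adjusted p = 0.680), -0.44 ± 0.40 against WT (0.790) and 0.07 ± 0.39 in DH-LMP2A against WT (0.967). Single libraries moved these values: between LCDD and DH-LMP2A the difference was -0.21 without LCDD replicate 1 and -0.93 without LCDD replicate 3, and between LCDD and WT -0.14 and -0.87. Between DH-LMP2A and WT it lay from -0.09 to 0.25 as each library was left out, and Casz1 was called in none of these fits.

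Per kilobase of exon the order of the members by mean depended on the genotype only through Angptl7. In DH-LMP2A, Angptl7 had the highest mean, 45.4 ± 18.8 CPM per kb (SD, n = 4), followed by Tardbp (32.98 ± 6.35), Exosc10 (24.6 ± 1.33), Mtor (13.03 ± 1.32), Srm (11.7 ± 1.96), Casz1 (5.81 ± 1.79) and Masp2 (1.202 ± 0.648). Angptl7 overlapped both Tardbp and Exosc10 between libraries, Tardbp overlapped Exosc10, and Mtor overlapped Srm. In LCDD, Angptl7 had 1.13 ± 0.668 CPM per kb (SD, n = 4), below Casz1 (4.10 ± 2.55), although LCDD replicate 1 of Casz1 fell within the Angptl7 range, and Masp2 was again lowest at 0.0473 ± 0.0198. In WT, Angptl7 had 5.46 ± 3.64 CPM per kb (SD, n = 5), close to Casz1 at 5.54 ± 1.47, and Masp2 0.263 ± 0.230.

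**Figure D2:**
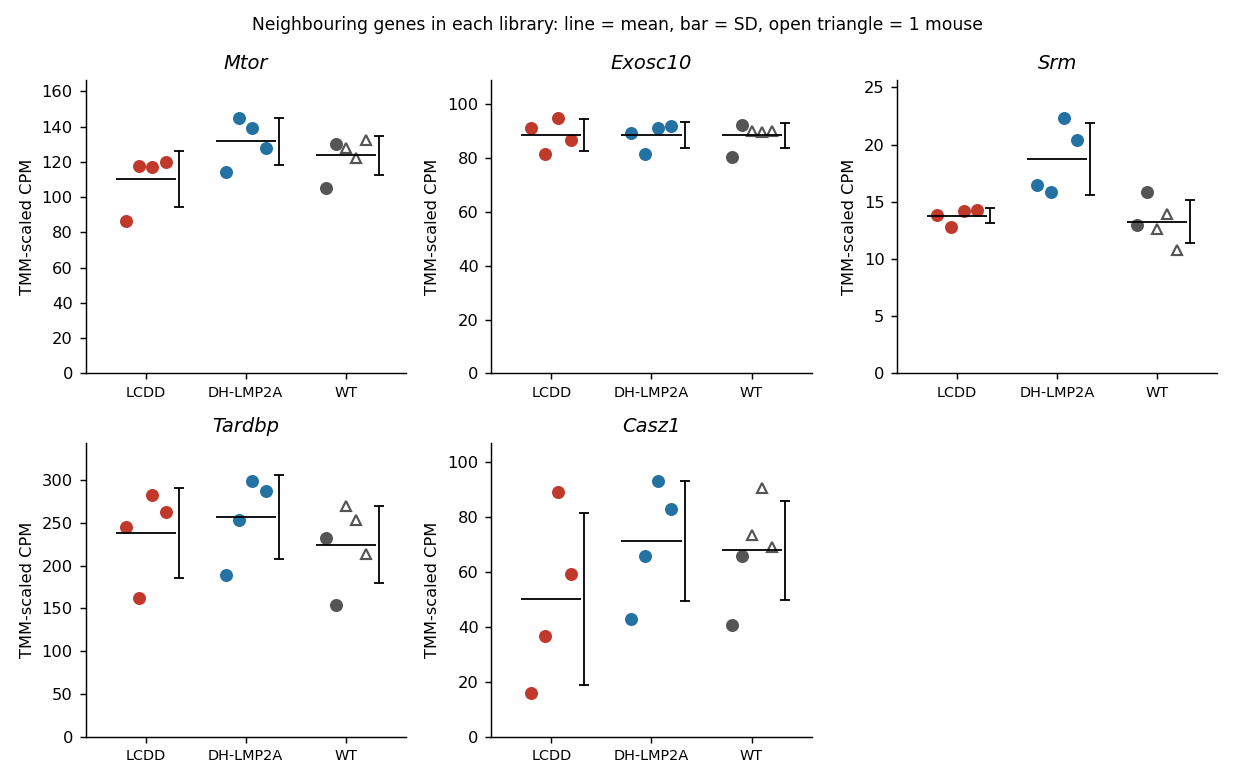
TMM-scaled CPM of the 5 neighbouring members in each library, with the mean as a line and the SD as a bar. Filled circles are pools and open triangles single WT mice. The genotypes overlap for each gene, except that Srm in LCDD (12.8 to 14.3 CPM) lies below Srm in DH-LMP2A (15.8 to 22.3 CPM).

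The comparison was widened to genes within 1 Mb of the 7 members. Of 86 further rows examined in that window, 40 had enough counts to be tested, 23 of the others had no count in any library, and the counts below are over the 40. In LCDD against DH-LMP2A 1 gene was called higher (1.30% of all genes) and 0 lower (0.693%), or 2.5% of 40 against the background of 2.00%. DESeq2 called 1 of the 40, 4 had an unadjusted p under 0.05 (13.10% of all genes), and the median log2 fold change was 0.0093 against -0.0061 over all genes. In DH-LMP2A against WT 0 were called higher (0.275% of all genes) and 1 lower (0.352%), with 1 called by DESeq2, 7 at an unadjusted p under 0.05 (12.46% of all genes) and medians of 0.01 and 0.0009. In LCDD against WT 0 flanking genes were called by edgeR or DESeq2, and 1 had an unadjusted p under 0.05 (11.96%). The median there was -0.06 against 0.01. The called gene was 2610305D13Rik in both comparisons with DH-LMP2A, which share the DH-LMP2A libraries.

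2610305D13Rik (minus strand, chr4:147611937-147642513) lies 853 kb before Angptl7. Opposite to Angptl7 and Masp2, it was lowest in DH-LMP2A. It had 0 counts in all 4 DH-LMP2A libraries, 263, 127, 52 and 75 counts in LCDD replicates 1 to 4 and 52 to 233 counts in WT. Against a floor of 3 counts per library it was at least 39.0-fold higher in LCDD than in DH-LMP2A (edgeR adjusted p = 0.000717) and at least 41.4-fold higher in WT than in DH-LMP2A (edgeR adjusted p = 0.00119). LCDD (5.16 ± 3.41 CPM, SD, n = 4) and WT (5.47 ± 1.97 CPM, SD, n = 5) overlapped, and their log2 fold change was only -0.09 ± 0.43 (SE) at an edgeR adjusted p of 0.979. How the counting treated reads that match related genes nearby is not given in the sources used here, so its level is uncertain.

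edgeR called no other of the 40 flanking genes without the block. Outside the 40, DESeq2 called Gm572 in LCDD against DH-LMP2A (DESeq2 adjusted p = 0.0353), a row named after its values were seen, with 0 or 1 count in the LCDD libraries, 3 to 9 in DH-LMP2A and 1 to 9 in WT. With the title code as a block, 4 of 40 were called in LCDD against DH-LMP2A (6.10% of all genes) and 3 of 40 in DH-LMP2A against WT (3.36%). Those added were Fbxo2, Pex14 and Tmem201 in the first, at log2 fold changes of -1.10 ± 0.25, -0.58 ± 0.13 and -0.35 ± 0.08 (SE). Their edgeR adjusted p were 0.0303, 0.0276 and 0.0380. In the second, Miip (0.37 ± 0.09, SE) and Tmem201 (0.45 ± 0.08, SE) joined, at 0.0495 and 0.0262 on the same adjusted p of edgeR. In LCDD against WT 0 were called with the block, where 3.20% of all genes were. These genes were named after their values were seen. Over the whole of chromosome 4, 3.12% of 1058 tested genes were called in LCDD against DH-LMP2A (2.00% of all genes). In LCDD against WT and DH-LMP2A against WT 1.32% were called in each (1.84% and 0.627% of all genes). The 1058 include Angptl7 and Masp2, which were chosen from these data, so these shares are a description.

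**Figure D3:**
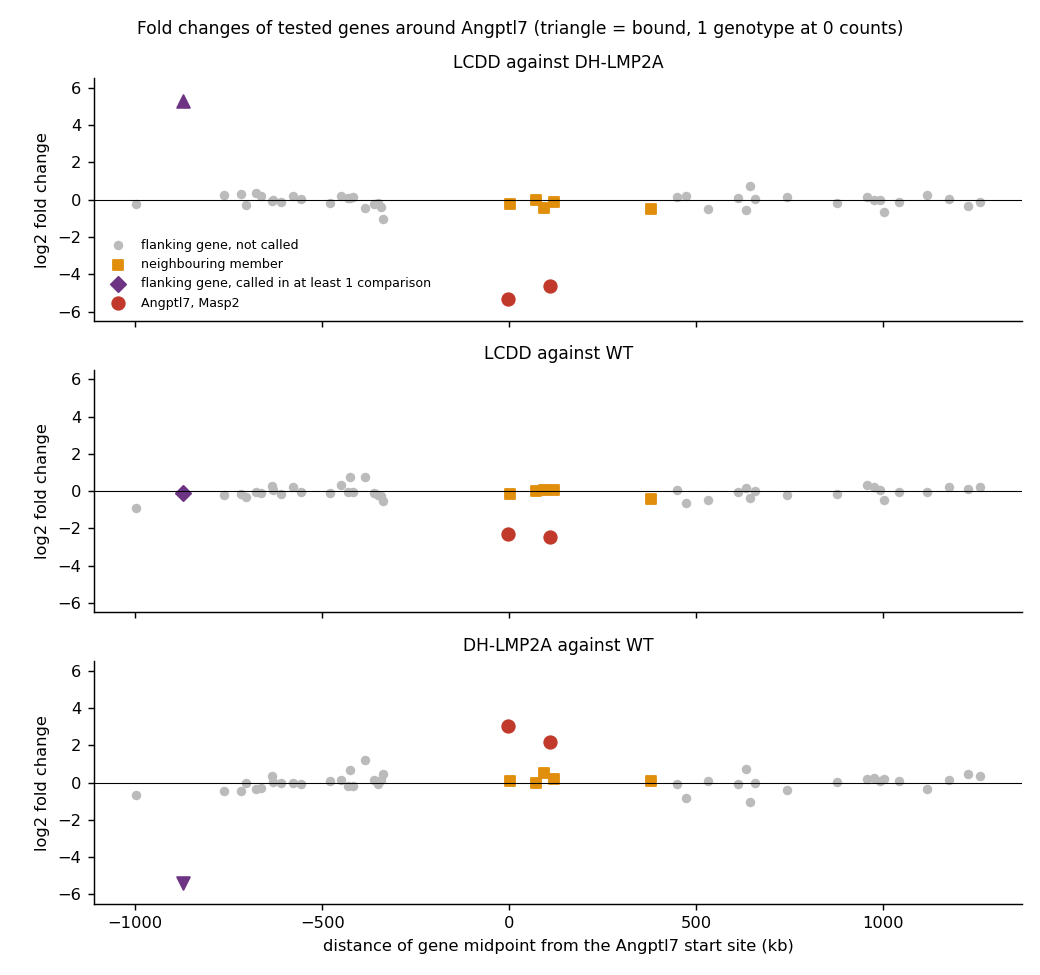
Log2 fold change of the members and the flanking genes tested against the distance of each gene's midpoint from the Angptl7 start site in kb, in 3 comparisons. Angptl7 and Masp2 (circles) lie apart from the neighbours on both sides, most of which are nearer 0. Some uncalled genes lie further out, such as Fbxo2 (-1.02) in LCDD against DH-LMP2A. In DH-LMP2A against WT, Draxin (1.23) and Rpsa-ps12 (-1.06) do so. 2610305D13Rik (triangle, a bound) is displaced in the opposite direction to the pair in both comparisons with DH-LMP2A.

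Other genes of the members' pathways were taken from 6 lists. In the lectin pathway of complement, 11 of 17 genes were tested, Masp2 among them. Besides Masp2, 1 of 10 was called lower and 0 higher in LCDD against each other genotype (against WT, 0.544% of all genes were called lower and 1.30% higher), and 0 were called in DH-LMP2A against WT. In LCDD against DH-LMP2A, LCDD against WT and DH-LMP2A against WT, 4, 3 and 3 of the 10 had an unadjusted p under 0.05 (13.10%, 11.96% and 12.46% of all genes), and DESeq2 called 2, 1 and 1 (4.02%, 3.60% and 2.35%). The called gene was Colec12, a scavenger receptor of the collectin family, whose LCDD level was 20.4 ± 5.73 CPM (SD, n = 4). DH-LMP2A had 75.3 ± 30.7 CPM (SD, n = 4), while WT reached 145 ± 39.2 CPM (SD, n = 5). Its log2 fold change was -1.88 ± 0.33 (SE, edgeR adjusted p = 0.0114) against DH-LMP2A and -2.83 ± 0.33 (SE, edgeR adjusted p = 0.000775) against WT, and its mean was highest in WT. Masp1, the protease paired with Masp2 in the lectin complexes, had a mean of 4.19 ± 1.96 CPM in DH-LMP2A (SD, n = 4). It was 0.809 ± 0.523 for LCDD (SD, n = 4) and 0.769 ± 0.674 for WT (SD, n = 5). Without the block it stayed short of a call (edgeR adjusted p = 0.126 between LCDD and DH-LMP2A, 0.139 between DH-LMP2A and WT) and was called in both with it (0.00600 and 0.00617 by the same test). Serping1, the C1 inhibitor, was 0.48 ± 0.19 (SE) higher in log2 terms in LCDD than in WT, without a call (edgeR adjusted p = 0.298).

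In the angiopoietin-like family 4 relatives of Angptl7 were tested and 0 were called in any comparison, by edgeR or DESeq2. At an unadjusted p under 0.05 there were 2 of the 4 in LCDD against DH-LMP2A (13.10% of all genes) and 0 in the comparisons with WT (11.96% and 12.46%). Angptl6 and Angptl4 had the smallest p, with log2 fold changes of -0.59 ± 0.23 and 0.75 ± 0.33 (SE) in LCDD against DH-LMP2A (edgeR adjusted p = 0.255 and 0.356). Angptl4, a regulator of lipoprotein lipase, had 70.8 CPM in LCDD, 42.1 CPM in DH-LMP2A and 57.8 CPM in WT on average.

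All 24 listed genes of the mTOR complexes and their regulators were tested, and both edgeR and DESeq2 called 0 in each comparison. An unadjusted p under 0.05 was reached by 2, 3 and 1 of them in LCDD against DH-LMP2A, LCDD against WT and DH-LMP2A against WT, beside 13.10%, 11.96% and 12.46% of all genes. Their median log2 fold changes were -0.10, -0.07 and 0.03. Telo2, a chaperone cofactor that stabilises kinases of the mTOR family, had 35.7 CPM in DH-LMP2A, 25.04 CPM in LCDD and 24.0 CPM in WT. It was called only with the block, where edgeR gave an adjusted p of 0.0363 between LCDD and DH-LMP2A and of 0.0341 between DH-LMP2A and WT (0.312 and 0.263 without it). Rraga, Prr5l, Rragc and Eif4ebp2, the others with the smallest p, had log2 fold changes between -0.25 and 0.61.

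Of 14 polyamine genes tested, Srm included, edgeR called 0 in each comparison, with 4, 1 and 3 at an unadjusted p under 0.05 in the same order (the same shares of all genes apply) and 2, 0 and 1 called by DESeq2 (4.02%, 3.60% and 2.35% of all genes). Odc1, the ornithine decarboxylase that opens the pathway, had 87.4 ± 8.86 CPM across LCDD (SD, n = 4) against 152 ± 37.1 CPM across DH-LMP2A (SD, n = 4), a log2 difference of -0.80 ± 0.20 (SE) at an edgeR adjusted p of 0.0665, or 0.0335 with the block. Smox, the spermine oxidase, went the other way at 0.62 ± 0.17 (SE, edgeR adjusted p = 0.0844, and 0.0436 with the block). The arginases Arg1 and Arg2 had the smallest p in LCDD against WT, with log2 fold changes of 1.41 ± 0.55 and 1.17 ± 0.58 (SE, edgeR adjusted p = 0.282 and 0.469).

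Of 17 RNA exosome genes and cofactors tested, edgeR called 0 in each comparison, with 2, 1 and 1 at an unadjusted p under 0.05 (13.10%, 11.96% and 12.46% of all genes) and 1, 0 and 0 by DESeq2 (4.02%, 3.60% and 2.35%). Rbm7, of the nuclear exosome targeting complex, had a log2 fold change of 0.36 ± 0.10 (SE) in LCDD against DH-LMP2A (edgeR adjusted p = 0.0799, and 0.0203 with the block). C1d, Mphosph6 and Exosc5 had log2 fold changes between -0.43 and 0.34 where their p was among the smallest. Of 13 RNA-binding proteins related to Tardbp, 0 were called by edgeR or DESeq2, 0 had an unadjusted p under 0.05 in any comparison, and the medians were -0.02, 0.05 and 0.0019. The smallest p there belonged to Atxn2, Hnrnpa1, Ewsr1, Elavl1 and Hnrnpc, with log2 fold changes between -0.24 and 0.23.

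The genes whose log2 CPM was most like that of the pair over the 13 libraries were found by Pearson correlation, leaving out symbols of predicted genes (Gm with digits, or ending in Rik). The values are a description: the genes share the libraries and their depth. For Angptl7 these were RP24-363O21.3 (0.965), Slc30a2 (0.960), Pianp (0.955), Extl1 (0.950) and Rhpn2 (0.945). For Masp2 they were RP24-377D18.5 (0.973), Rhpn2 (0.967), Cfap61 (0.965), Tmod4 (0.955) and Prelid2 (0.951). RP24-377D18.5 had 0 to 2 counts in the LCDD libraries and 1 count in each WT pool. Cfap61 had 1 to 4 counts in LCDD and 1 to 2 in the WT pools. Like Masp2 itself, both were near the floor of 3 counts there, where the prior count weighs on log2 CPM. Among 16737 genes Masp2 ranked 12 for Angptl7 and Mtor, in whose intron Angptl7 lies, 287, while Exosc10 ranked 6083. For Masp2, Angptl7 ranked 21 and the overlapping Tardbp 2241.

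Slc30a2, a zinc transporter, and Extl1, an exostosin-like glycosyltransferase, are also neighbours of each other, 1887 bases apart on chromosome 4 (chr4:134343181-134354484 and chr4:134356372-134383850) and about 14.1 Mb from Angptl7. Slc30a2 had 62.4 ± 15.0 CPM (SD, n = 4) in DH-LMP2A, 8.15 ± 2.66 CPM (SD, n = 4) in LCDD, 11.1 CPM on average in the WT pools and 32.9 CPM in the single WT mice. Extl1 had 40.7 ± 19.0 CPM (SD, n = 4) in DH-LMP2A, 6.04 ± 2.64 CPM (SD, n = 4) in LCDD, 8.56 CPM in the WT pools and 15.0 CPM in the single mice. Both thus had the order of Angptl7, including the split within WT, which the measure of likeness selects for. On other chromosomes, Pianp (chromosome 6) had 73.1, 11.4, 11.8 and 41.7 CPM and Rhpn2 (chromosome 7) 50.3, 17.8, 15.9 and 37.0 CPM in DH-LMP2A, LCDD, WT pools and single WT mice. Pianp (chr6:124996694-125003096) shares chromosome 6 with the gene most like Angptl7, RP24-363O21.3 (chr6:128169704-128183803). The gene most like Masp2, RP24-377D18.5 (chr6:131291603-131292338), lies there too.

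**Figure D4:**
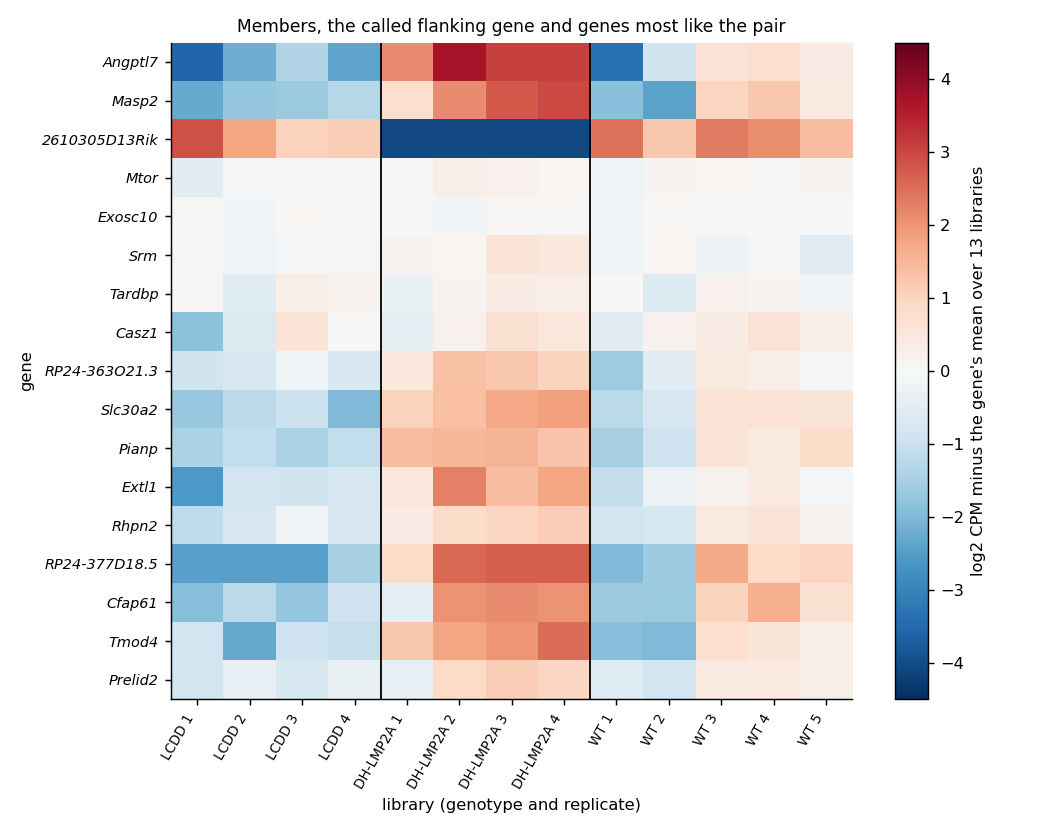
Log2 CPM minus each gene's mean over the 13 libraries (colour) for the pair, the called flanking gene, the 5 neighbouring members and the genes most like the pair, by library. Angptl7, Masp2 and the genes most like them are high in DH-LMP2A (except Cfap61 and Prelid2 in its replicate 1) and low in LCDD and WT replicates 1 and 2. The colours of 2610305D13Rik are reversed in LCDD and DH-LMP2A, and those of Mtor and Exosc10 are pale throughout.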

How the data were processed

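The authors deposited 1 table of raw counts, with a row for each gene, from RNA of bead-purified glomeruli, made with STAR 2.4.0a and featureCounts of Subread 1.5.0-p3 on mm10 (GRCm38), per the submitters' processing notes. The deposited gene lengths are summed exon bases, per the file headers. Strand setting, handling of multiply matching reads and annotation are not given in the sources used here. Total counts were 16687509 to 30587890, and the floor of 3 counts covers counting error only.

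Genes were tested with edgeR 4.0.16 (R 4.3.3): filterByExpr with a minimum count of 10 kept 16738 of 46958 genes, counts were scaled with TMM factors, and all 13 libraries entered 1 quasi-likelihood fit with 1 coefficient per genotype and Benjamini-Hochberg adjustment at 0.05. The SE is the log2 fold change divided by the root of F. CPM are TMM-scaled, with 2 as the prior count for log2 CPM. Genes were named by a rule: the members, called flanking genes within 1 Mb, the genes of smallest p in each list, and the 5 most correlated with Angptl7 and Masp2. The members and lists were chosen with earlier results of these data known. DH-LMP2A against WT was meant to be tested for Angptl7 and Masp2 and is given as a description, because its libraries entered the choice. Replicates are numbered in deposition order, and nothing states that pools share no litter, so p-values measure the spread between these libraries. The title code pairs libraries: deviations from the genotype mean correlated, within a code, at 0.153 to 0.593 (4 pairs, LCDD and DH-LMP2A), 0.127 to 0.400 (3, LCDD and WT) and 0.160 to 0.492 (3, DH-LMP2A and WT). An item of the window is not reported here. The fit was tested on simulated counts. Alternatives were DESeq2 1.42.0, RLE factors, other filters, fewer genotypes, the block, and omitted libraries.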

Additional observations from a re-analysis of the deposited data

Results flagged for a closer look

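Each genotype's log2 CPM values of the 7 members and the called flanking gene were examined for a library far from the others of its genotype. In 2 of 24 groups of values the gap of an extreme library to the nearest other exceeded the 95% limit of Dixon's test, where chance gives about 1.2. Mtor had a log2 CPM of 6.44 in LCDD replicate 1, against 6.87 to 6.90 in the other LCDD libraries, which is 86.6 against 117 to 120 CPM. That library also had the lowest sum of podocyte markers, 6729 CPM against at least 12320 CPM in the other LCDD libraries. The part of this in the Mtor value was not tested. Exosc10 had a log2 CPM of 6.33 in WT replicate 1, against 6.49 to 6.53 in the other WT libraries, which is 80.3 against 89.6 to 92.2 CPM. The low values of Angptl7 and Masp2 in the WT pools did not exceed the limit, since there were 2 such libraries.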

How the results depend on the processing

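The sign of the Angptl7 and Masp2 differences held in every setting tried except 1: without the 3 single-mouse WT libraries, Masp2 in LCDD against WT was 0.54 in place of -2.45. The title code as a replicate block gave -5.45 for Angptl7 and -4.67 for Masp2 in LCDD against DH-LMP2A. Neither a tested member nor 2610305D13Rik changed its call in any setting that gave it a value, except Srm in DH-LMP2A against WT, called by DESeq2 and with the block. Numbers of genes called moved more. In LCDD against DH-LMP2A (334) DESeq2 called 811, a minimum mean of 5 CPM left 153, fitting only the genotypes compared 213, the replicate block 1021, and leaving out the WT pools (chosen after seeing the data) 518. Omitting 1 replicate gave 113 to 484, with the counts lowered by over 1.5 times without LCDD replicates 1 or 2 or DH-LMP2A replicates 2, 3 or 4. In LCDD against WT (308) the same settings gave 725, 116, 185, 536 and 576, and 54 without the single mice. Omitting 1 replicate gave 159 to 441, lowest without WT replicates 3, 4 or 5. In DH-LMP2A against WT (105) DESeq2 called 461, the CPM minimum left 54, the replicate block gave 562, and the fits without single mice and without WT pools 69 and 267. Omitting 1 replicate gave 29 to 407, with 407 without WT replicate 1 and 29 to 50 without DH-LMP2A replicates 2, 3 or 4 or WT replicates 3, 4 or 5. Flanking genes called in LCDD against DH-LMP2A (1) were 2 with DESeq2, over all flanking rows it tested, 0 with the CPM minimum and 4 with the replicate block. In DH-LMP2A against WT (1) they were 0 with the CPM minimum and 3 with the replicate block. With 1 replicate omitted there was 1 in each. Omissions and filters leave fewer libraries or genes; otherwise the cause was not tested. Masp2 and 2610305D13Rik fall below the CPM minimum, and Masp2 has no value with only LCDD and WT in the fit. Depth limits Masp2, at or near 3 counts in LCDD and the WT pools.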
